A study of Daphnia sinensis with 8 samples.

Results

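The transcriptomes of parthenogenetic females (PF) and juvenile females (JF) of *D. sinensis* were compared, using 4 of the 8 libraries of the series, 2 of each stage, chosen by their labels. PF were adults of 2 to 3 weeks, selected under the microscope when they carried eggs for the first time, and a sample held about 50 animals. JF were taken less than 12 h after birth, and a sample held about 500 animals. Sexual females (SF, carrying resting eggs, about 50 per sample) and males (M, about 60 per sample), both labelled as adults of 2 to 3 weeks with 2 libraries each, served to show which changes between JF and PF were also found in the other adults. All animals descended from mothers collected in 1 lake and fed on a green alga. JF came from mothers kept singly in 50 ml beakers, whereas PF and SF came from 250 ml beakers that began with 10 mothers each and had grown crowded, and M were cultured apart from their juvenile stage on, so age, culture and stage cannot be told apart in any comparison with JF. Whole animals were pooled, and the sources used here do not say whether the eggs were removed from PF.

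*Daphnia* is a small crustacean that produces daughters from unfertilized eggs as long as conditions are good. A newborn female grows through a series of moults, and the ovary then provisions eggs that develop in a brood pouch under the carapace. Moulting goes on in the adult, and a new clutch follows each moult. The cuticle that is shed and rebuilt at each moult contains chitin, which is made by chitin synthase and broken down by chitinases, while proteases of the trypsin type digest food proteins in the gut and also act in other tissues.

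The count tables hold an estimated number of reads for 11114 unigenes, which are gene models assembled from the reads without a genome. They carry only an assembly ID. None of these IDs matched the reference gene table of the species (0 IDs), so gene names were available only for the 28 listed unigenes of the study's table of male-biased genes, and the tissues could not be checked by markers. *Doublesex2* (Cluster-5789.12340), a transcription factor gene of sex differentiation, had 3.45 and 5.9 CPM (counts scaled to a common library size) in PF, 4.03 and 3.91 CPM in SF, 228 and 221 CPM in M, and 5.65 and 4.06 CPM in JF, so all libraries labelled female were low. Total counts were 24960732 and 17172891 in PF and 18688623 and 27160267 in JF. Among unigenes above 20 CPM, the median absolute log2 ratio between the libraries of a stage was 0.19 in PF, 0.20 in SF, 0.04 in M and 0.15 in JF. No unigene with a count of 0 in any library is listed, so a gene that was silent in PF or in JF could not be found.

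In PF vs JF, 1863 unigenes were up-regulated and 2342 were down-regulated, which is 17.2% and 21.6% of the 10822 unigenes tested (38.9% together). A unigene was called a DEG when the adjusted p of edgeR's quasi-likelihood test was under 0.05 and the absolute log2 fold change (PF over JF) was over 1. The fit used all 8 libraries. The libraries of both stages did not overlap for any DEG, but they did not overlap for 80.7% of all tested unigenes either (38.1% with both PF libraries above both JF libraries and 42.6% below). The changes are shifts in the RNA of pooled whole animals, in which fewer cells of a type and less RNA per cell cannot be told apart. The study also reported matches of some unigenes to species outside *Daphnia*, such as *Tetrahymena thermophila*. Whether the unnamed unigenes stem from the animals themselves was not tested.

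Most changes were moderate in size. Of the up-regulated unigenes, 1321 (70.9%) had a log2 fold change of 1 to 2, 383 of 2 to 3, 136 of 3 to 5 and 23 of over 5. Of the down-regulated unigenes, 1389 (59.3%) fell by 1 to 2 on the log2 scale, 698 by 2 to 3, 233 by 3 to 5 and 22 by over 5. The median change was thus 3.01-fold among up-regulated and 3.5-fold among down-regulated unigenes. The class over 5 had a median of 518 CPM in PF and 9.92 CPM in JF among the rises, and of 3.7 CPM in PF and 229 CPM in JF among the falls.

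Both directions were found at every level of expression. The level was the mean of the PF and JF means in CPM, which grows with the length of a unigene as well as with its expression. Among the 995 unigenes under 1 CPM, 14.8% were up-regulated and 9.45% down-regulated. In the 4 higher classes the down-regulated share was the larger one, with 16.3% up-regulated and 23.3% down-regulated at 1 to 10 CPM and 16.1% and 25.5% at 100 to 1000 CPM. Above 1000 CPM, 16 of 104 unigenes were up-regulated and 19 were down-regulated. Among DEGs, the median log2 fold change lay between 1.54 and 1.62 for up-regulated unigenes in the 4 classes up to 1000 CPM and was 2.08 above it. For down-regulated unigenes it lay between -1.78 and -1.89 in all 5 classes. As DEGs were cut at an absolute log2 fold change of 1, these medians do not show how the size of change depends on level. The median standard error was 0.46 under 1 CPM and 0.14 at 100 to 1000 CPM, so small changes of rare unigenes were less likely to be called.

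**Figure D1:**
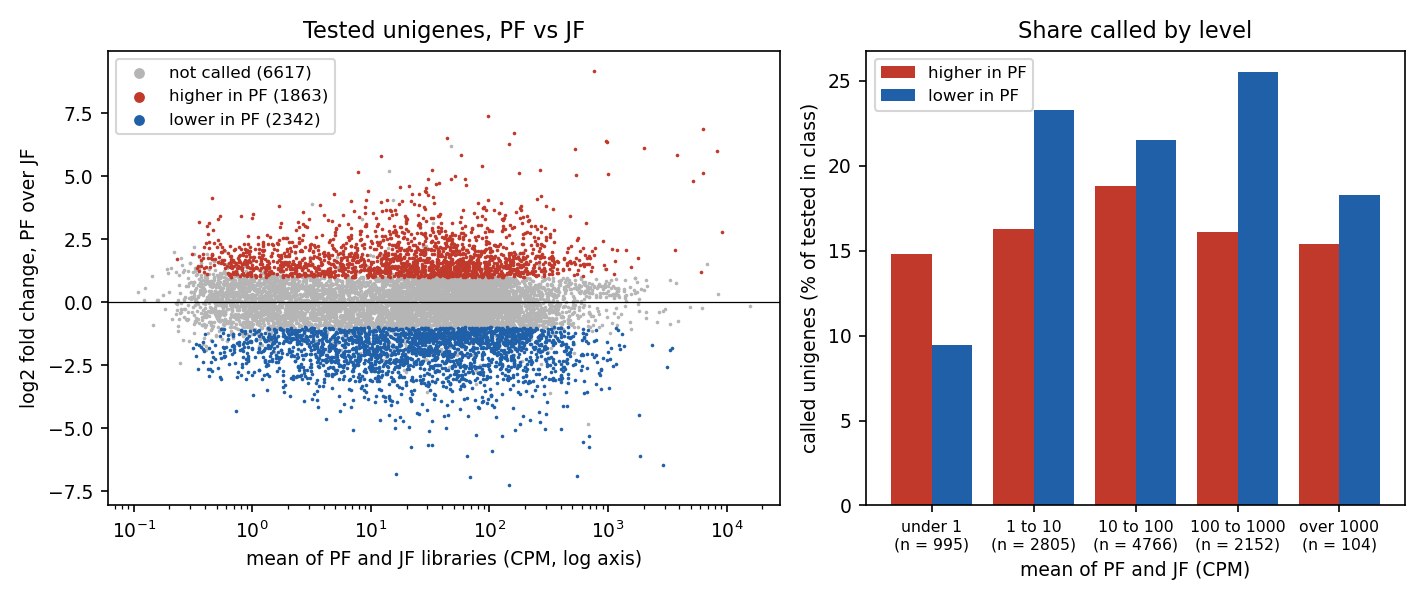
Left, log2 fold change of PF over JF (vertical axis) against the mean of the 4 PF and JF libraries in CPM (horizontal log axis), each point 1 of 10822 tested unigenes. Right, share of tested unigenes in 5 classes of level that were higher (red) or lower (blue) in PF; the lower share is the larger one in all classes except that under 1 CPM.

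The DEGs took a large part of the transcript pool, and the 2 directions exchanged places in it. Up-regulated unigenes held 32.3% and 30.2% of all counts in the PF libraries, against 6.86% and 7.18% in the JF libraries. Down-regulated unigenes held 8.98% and 9.24% in PF, against 34.7% and 34.9% in JF. The unigenes without a call kept a similar share, with 58.7% and 60.6% in PF and 58.5% and 57.9% in JF. The other adults lay between both stages. Up-regulated unigenes held 20.8% and 20.7% of the counts in SF and 13.7% in each library of M, and down-regulated unigenes held 17.2% and 15.9% in SF and 25.9% in each library of M. These shares describe unigenes that were chosen in PF vs JF and carry no test, as 2 against 2 libraries cannot give an exact two-sided permutation p below 0.333.

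**Figure D2:**
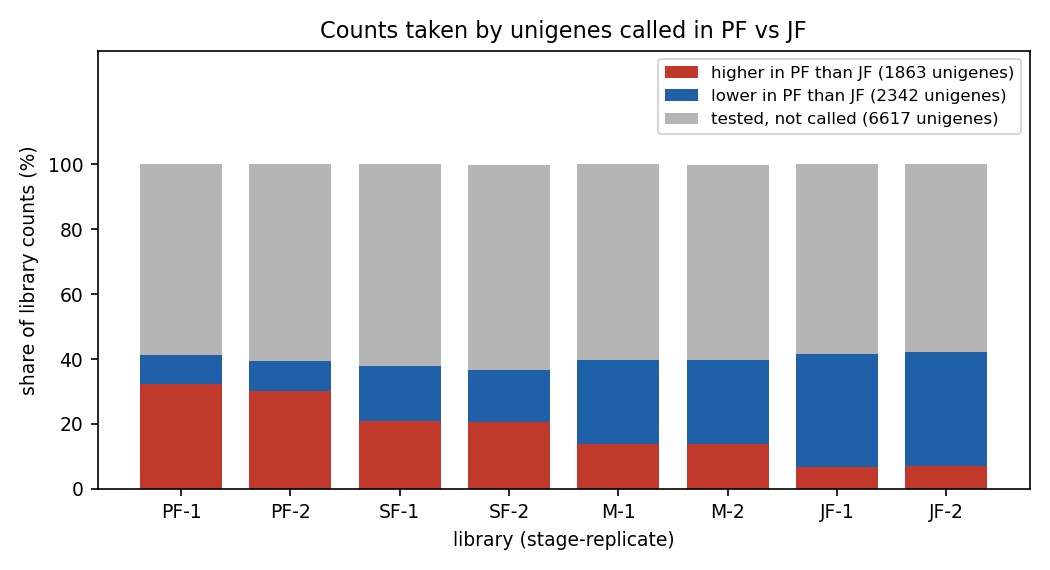
Share of the counts of each library (percent, vertical axis) that fell on unigenes called higher (red) or lower (blue) in PF than in JF or not called (grey). The red part is 30.2% or more in both PF libraries and at most 7.18% in both JF libraries, with SF and M between them.

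The counts were also more concentrated in PF. The 10 unigenes with the most counts held 13.8% and 10.2% of the PF libraries, against 7.14% and 6.49% of the JF libraries. In PF, 400 and 501 unigenes were enough for 50% of the counts, against 593 and 605 in JF. Of the 20 unigenes with the highest PF mean, 10 were up-regulated in PF vs JF and the other 10 were not called. Of the 20 with the highest JF mean, 7 were down-regulated in PF and 1 was up-regulated. Both lists of 20 shared 9 unigenes.

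A small number of unigenes with very large changes held a sizeable part of the counts in PF. The 23 unigenes with a log2 fold change over 5 held 7.99% and 5.09% of the counts in PF, against 0.0172% and 0.199% in JF. Of these 23, 13 carry consecutive numbers in the assembly's ID, a run that was found after the values had been seen and whose IDs are not annotated. This run alone held 7.62% and 4.83% of the counts in PF-1 and PF-2, 2.3% and 0.41% in SF-1 and SF-2, 1.78% and 1.82% in M, and 0.0141% and 0.194% in JF-1 and JF-2. The libraries of JF and those of SF thus differed strongly in these unigenes, and those of PF less. In each of the 13 unigenes, JF-2 was between 2.85 and 18.3 times as high as JF-1, and SF-1 between 2.74 and 10.6 times as high as SF-2. PF-1 was between 1.18 and 2.03 times as high as PF-2.

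Both PF libraries were above both JF libraries in all 13 unigenes of the run, with log2 fold changes from 5.03 to 6.88 (edgeR adjusted p from 0.00113 to 0.0419). Against the other adults the difference was not established. In PF vs SF edgeR called 0 of the 13 (log2 fold changes from 1.61 to 2.75, adjusted p from 0.0724 to 0.453), 1 had an unadjusted p under 0.05, and DESeq2 called 7. In PF vs M edgeR called 1. Without the run, up-regulated unigenes held 24.7% and 25.4% of the counts in PF, against 6.84% and 6.99% in JF. The exchange between stages was not confined to the run.

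Without annotation, 4 single unigenes were picked by size of change among those above 20 CPM in PF or JF. The largest rise was that of Cluster-5789.10514, with 2045 and 993 CPM in PF, 331 and 20.2 CPM in SF, 61.1 and 55.9 CPM in M, and 0.523 and 4.65 CPM in JF. All adult libraries were above both JF libraries. The change in PF vs JF was 9.15 on the log2 scale (edgeR adjusted p = 0.00755, standard error 1.88) and depended on the JF library, with 8.35 without JF replicate 1 and 11.49 without JF replicate 2. PF and SF could not be separated by the test (edgeR adjusted p = 0.157 at a log2 fold change of 3.11).

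Cluster-5789.503 had the largest rise that was particular to PF. It had 153 and 73.6 CPM in PF, while SF (2.13 and 1.05 CPM), M (2.6 and 2.69 CPM) and JF (1.36 and 2.57 CPM) were all low. PF did not overlap with any other library, and the log2 fold change was 5.83 in PF vs JF, 6.15 in PF vs SF and 5.42 in PF vs M (edgeR adjusted p = 0.000361, 0.00166 and 0.00056). In PF vs JF it was between 5.24 (without PF replicate 1) and 6.38 (without JF replicate 2).

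The largest fall was that of Cluster-5789.6401, with 1.87 and 1.95 CPM in PF, 326 and 273 CPM in SF, 125 and 123 CPM in M, and 326 and 254 CPM in JF. PF was the only stage in which it was low, as the SF libraries lay at the level of JF. The log2 fold change in PF vs JF was -7.24 (edgeR adjusted p = 3.16e-05, standard error 0.20), 152-fold lower in PF, and in SF vs JF it was 0.05 (edgeR adjusted p = 0.806). Cluster-5789.7782 was also lowest in PF, with 1.18 and 1.35 CPM in PF, 243 and 88.6 CPM in SF, 213 and 209 CPM in M, and 72.5 and 56 CPM in JF. Its log2 fold change was -5.66 in PF vs JF, -7.03 in PF vs SF and -7.38 in PF vs M (edgeR adjusted p = 0.000416, 0.00136 and 0.000288).

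**Figure D3:**
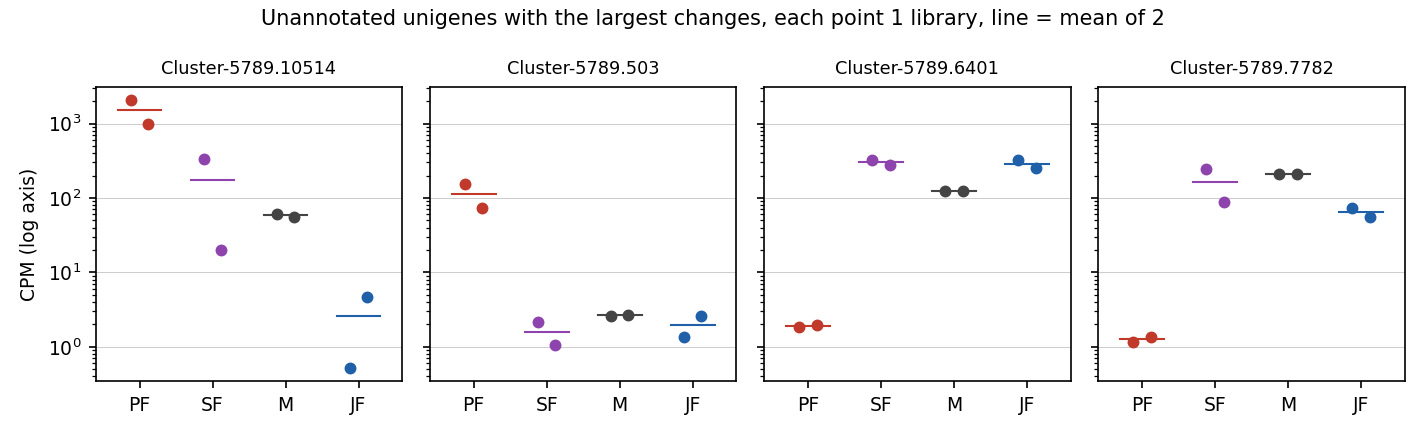
CPM (log axis) of 4 unannotated unigenes in PF, SF, M and JF, each point 1 library and each line the mean of 2. In Cluster-5789.503 both PF points (153 and 73.6 CPM) stand above all others, and in Cluster-5789.6401 and Cluster-5789.7782 both PF points, at most 1.95 CPM, stand below all others.

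The changes between JF and PF were then set beside those in the other adults. The 3 comparisons with JF share the JF libraries, so a chance deviation of JF would appear in all of them. Of the 1863 unigenes up-regulated in PF, 1270 (68.2%) were also up-regulated in SF vs JF and 550 (29.5%) in M vs JF, where 19.0% and 13.6% of all tested unigenes were up-regulated. Of the 2342 down-regulated unigenes, 1426 (60.9%) were also down-regulated in SF vs JF and 909 (38.8%) in M vs JF, with 18.6% and 15.6% of all tested unigenes. Split into classes, the up-regulated unigenes shared with SF but not with M were the largest group with 827 (44.4%), while 443 (23.8%) were shared with SF and M and 107 with M but not SF. Among the down-regulated unigenes 773 (33%) were shared with SF and M, 653 (27.9%) with SF but not M and 136 with M but not SF.

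The share of the change that was not called in the same direction in either of the other adults was 26.1% of the up-regulated unigenes (486) and 33.3% of the down-regulated unigenes (780). These numbers hold unigenes that were called in the opposite direction in SF or M, 29 of the 486 and 191 of the 780. The others, 457 up-regulated (24.5%) and 589 down-regulated unigenes (25.1%), were called in neither SF vs JF nor M vs JF. A missing call does not show that PF differed from SF and M, and this was tested directly in PF vs SF (4.84% of all tested unigenes higher and 9.98% lower in PF) and PF vs M (15.9% higher and 18.1% lower). Of the 457 up-regulated unigenes, 48 were also called higher in PF than in SF and in M, and of the 589 down-regulated unigenes 181 were called lower than both. For the remaining 409 and 408 a difference from both other adults was not shown. In the 457 up-regulated unigenes the median log2 fold change was 1.26 in PF vs JF, 0.75 in SF vs JF and 0.27 in M vs JF. In the 589 down-regulated unigenes it was -1.58, -0.62 and -0.24. Among the unigenes with an opposite call, PF was called different from both other adults in 15 of 29 that were up-regulated and in 176 of 191 that were down-regulated. Their choice by an opposite call largely fixes the difference from the adult with that call.

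Over all DEGs of PF vs JF, 109 unigenes (5.85% of the up-regulated ones) were called higher in PF than in JF, SF and M alike, and 481 (20.5% of the down-regulated ones) were called lower. These are 1.01% and 4.44% of all tested unigenes. The stage of PF was thus set apart from the other 3 by more down-regulated than up-regulated unigenes. This held under each alternative that was run, with between 18 and 630 unigenes in the up-regulated and between 198 and 795 in the down-regulated group. The size of the imbalance was not stable. It was 18 against 198 with the fold change threshold inside edgeR's test, but 630 against 795 with the adjusted p alone. The 109 unigenes held 1.15% and 1.36% of the counts in PF, 0.421% and 0.443% in SF, 0.284% and 0.285% in M, and 0.245% and 0.252% in JF. The 481 unigenes held 1.14% and 1.13% of the counts in PF, 6.83% and 5.41% in SF, 10.2% in each library of M, and 7.22% and 6.79% in JF.

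**Figure D4:**
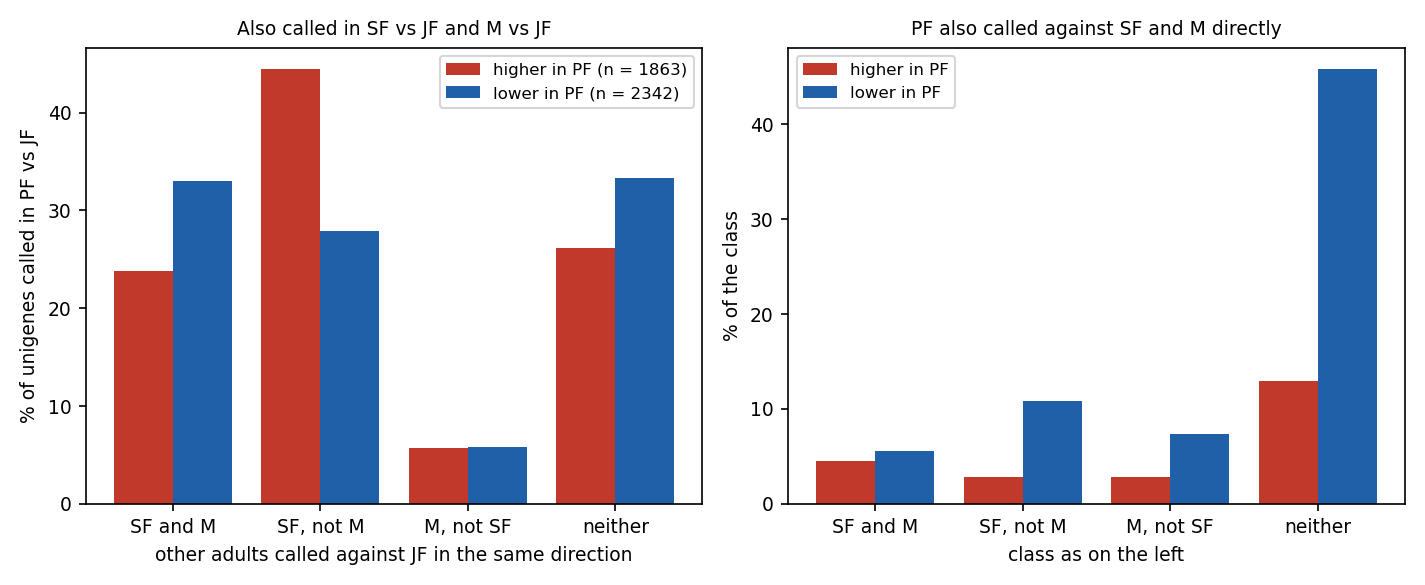
Left, unigenes called in PF vs JF (percent of each direction, red higher and blue lower in PF) by whether SF vs JF and M vs JF were called in the same direction. Right, percent of each of these classes in which PF was also called against SF and against M; among unigenes without a call in the same direction in SF or M, 63 of 486 are higher and 357 of 780 are lower in PF, opposite calls included.

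The share of changes without a call in the same direction in SF or M, opposite calls included, differed with their size. Of the up-regulated unigenes with a log2 fold change of 1 to 2, 32.6% had no such call, against 9.92% at 2 to 3 and 6.62% at 3 to 5. For the 23 unigenes over 5 the share was 34.8% (8 unigenes). This class holds the run of 13 consecutive IDs, in which every log2 fold change against JF was positive in the other adults. It was 3.34 to 4.55 in SF vs JF (8 of 13 called) and 2.9 to 4.68 in M vs JF (1 called). A missing call within the run is thus not an absent rise. Cluster-5789.503, also in this class, had -0.32 in SF vs JF and 0.41 in M vs JF, neither called. In the down-regulated unigenes the share without such a call was 35.8% at 1 to 2, 30.7% at 2 to 3, 27.9% at 3 to 5 and 18.2% over 5. The share called lower in PF than in JF, SF and M alike grew with the size of the fall, from 11.3% at 1 to 2 to 26.4%, 54.1% and 63.6% in the higher classes. Size of change and these calls come from the same PF libraries, so this is a description. By level of expression, the share without a call in the same direction in SF or M was between 24.3% and 32% of the up-regulated unigenes in the 5 classes. Of the down-regulated unigenes it was 47.9% under 1 CPM, between 30.8% and 35.1% in the next 3 classes, and 15.8% above 1000 CPM (19 unigenes).

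A part of the unigenes went the opposite way in PF and in the other adults. Of the down-regulated unigenes, 117 (5.0%) were up-regulated in SF vs JF and 203 (8.67%) in M vs JF, and 106 (4.53%) in both. Over all tested unigenes, 19.0% were up-regulated in SF vs JF and 13.6% in M vs JF. Of the up-regulated unigenes, 9 (0.483%) were down-regulated in SF vs JF and 125 (6.71%) in M vs JF, beside 18.6% and 15.6% of all tested unigenes. Opposite calls were thus rarer than the same calls over all tested unigenes. The 106 unigenes held 0.116% and 0.108% of the counts in PF, 2.67% and 1.48% in SF, 3.58% and 3.6% in M, and 0.586% and 0.462% in JF, so that PF was lowest and M highest. The number of such unigenes was between 75 and 146 with any 1 library left out, 35 with the fold change threshold inside edgeR's test and 162 with the adjusted p alone.

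*Chitin synthase 2* and *chitinase 8* belonged to these 106 unigenes. Such names are the best matches in other species, and the study chose the named unigenes for high expression in males on these same libraries, so their high values in M are no finding here. The sequences used here for these unigenes are the study's qPCR primers, which are given 5′ to 3′ (lower case, no base marked) because they identify the transcripts on which the next results turn, with a serine protease gene of the same pattern.
Chitin synthase 2, forward: ctccatcgcttcctgtta
Chitin synthase 2, reverse: gcatcgttcgttcatcaa
Chitinase 5, forward: atccgttatcttcttactcgta
Chitinase 5, reverse: atcatcatagccaatccattg
Chitinase 8, forward: aggatcagcgtagtaagc
Chitinase 8, reverse: catcagcatcaaccacag
Serine protease ami-like, forward: agacactgactccaatctc
Serine protease ami-like, reverse: cctgacactgcttgacta

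All 3 chitin genes were down-regulated in PF vs JF, where 21.6% of all tested unigenes were, but their choice by the study drew on these PF libraries. *Chitin synthase 2* (Cluster-5789.11830), the enzyme that polymerizes chitin, had 6.79 and 7.3 CPM in PF, 388 and 140 CPM in SF, 520 CPM in each library of M, and 66.8 and 58.4 CPM in JF. PF lay below every other library, and JF below every library of SF and M. The log2 fold change in PF vs JF was -3.15 (edgeR adjusted p = 0.00202, standard error 0.48), 8.88-fold lower in PF. In SF vs JF it was 2.08 (edgeR adjusted p = 0.00874), and in PF vs SF it was -5.23 (edgeR adjusted p = 0.00195).

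*Chitinase 5* (Cluster-5789.5191), which degrades chitin, had 16.1 and 12.9 CPM in PF, 538 and 96.3 CPM in SF, 1147 and 1140 CPM in M, and 207 and 173 CPM in JF. PF was again the lowest stage, but the SF libraries lay on both sides of JF. The log2 fold change was -3.71 in PF vs JF (standard error 0.80, edgeR adjusted p = 0.00903) and 0.74 in SF vs JF (edgeR adjusted p = 0.407). For *chitinase 8* (Cluster-5789.7417) the values were 11.6 and 8.71 CPM in PF, 705 and 252 CPM in SF, 1028 and 997 CPM in M, and 52.6 and 51.7 CPM in JF. The log2 fold change was -2.36 in PF vs JF (standard error 0.47, edgeR adjusted p = 0.00639), 3.20 in SF vs JF and -5.55 in PF vs SF (edgeR adjusted p = 0.00217 and 0.00185). The fall in PF vs JF was called for all 3 genes with any 1 library left out, with log2 fold changes from -3.24 to -3.05 for *chitin synthase 2*, from -3.84 to -3.56 for *chitinase 5* and from -2.54 to -2.17 for *chitinase 8*.

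The serine protease and trypsin genes outside the trypsin-7 type were all down-regulated in PF vs JF as well (3 of 3, beside 21.6% of all tested unigenes). Of the 3 genes of the trypsin-7 type, 2 were not called. The study's choice drew on these PF libraries here too. *Serine protease ami-like* (Cluster-5789.2039) had 5.53 and 4.44 CPM in PF, 404 and 116 CPM in SF, 522 and 517 CPM in M, and 64.6 and 63.3 CPM in JF. The order of the stages was that of *chitin synthase 2*, with -3.68 on the log2 scale in PF vs JF (edgeR adjusted p = 0.00284, standard error 0.60). *Trypsin alpha-like* (Cluster-5789.11655) had 29.8 and 31.4 CPM in PF, 541 and 239 CPM in SF, 742 and 751 CPM in M, and 85.2 and 81.1 CPM in JF. Its fall was smaller, with -1.44 on the log2 scale (edgeR adjusted p = 0.0127, standard error 0.35), and the call was lost without JF replicate 1 (-1.41, edgeR adjusted p = 0.0502), PF replicate 1 (-1.36, edgeR adjusted p = 0.0594) or PF replicate 2 (-1.48, edgeR adjusted p = 0.0545), and with the fold change threshold inside edgeR's test (adjusted p = 0.151).

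*Trypsin-like isoform X1* (Cluster-5789.7668) differed from these in that both adult female stages were low. It had 24.2 and 10.9 CPM in PF, 16.6 and 13.7 CPM in SF, 203 and 192 CPM in M, and 77.7 and 65.5 CPM in JF. The log2 fold change was -2.02 in PF vs JF and -2.24 in SF vs JF (edgeR adjusted p = 0.00359 and 0.00262), and PF and SF overlapped. In PF vs JF it was -2.67 without PF replicate 1 and -1.57 without PF replicate 2.

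Of the 3 trypsin-7-like genes, 1 was down-regulated in PF vs JF. *Putative trypsin-7* (Cluster-5789.3677) had 13 and 6.82 CPM in PF, 53.2 and 18.3 CPM in SF, 1152 and 1195 CPM in M, and 63.2 and 67.9 CPM in JF, with -2.72 on the log2 scale in PF vs JF (edgeR adjusted p = 0.00705, standard error 0.56). *Trypsin-7-like protein* (Cluster-5789.9553) had 5.49 and 1.3 CPM in PF and 2.67 and 2.79 CPM in JF, so the PF libraries lay on both sides of JF. The same held for Cluster-5789.9554, named as a partial *putative trypsin-7*, with 9.75 and 5.03 CPM in PF and 7.38 and 6.18 CPM in JF. Their log2 fold changes were 0.34 and 0.14 (edgeR adjusted p = 0.792 and 0.86). Reads of such a gene family could have been split between its members when the authors counted them, so the single values are uncertain.

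**Figure D5:**
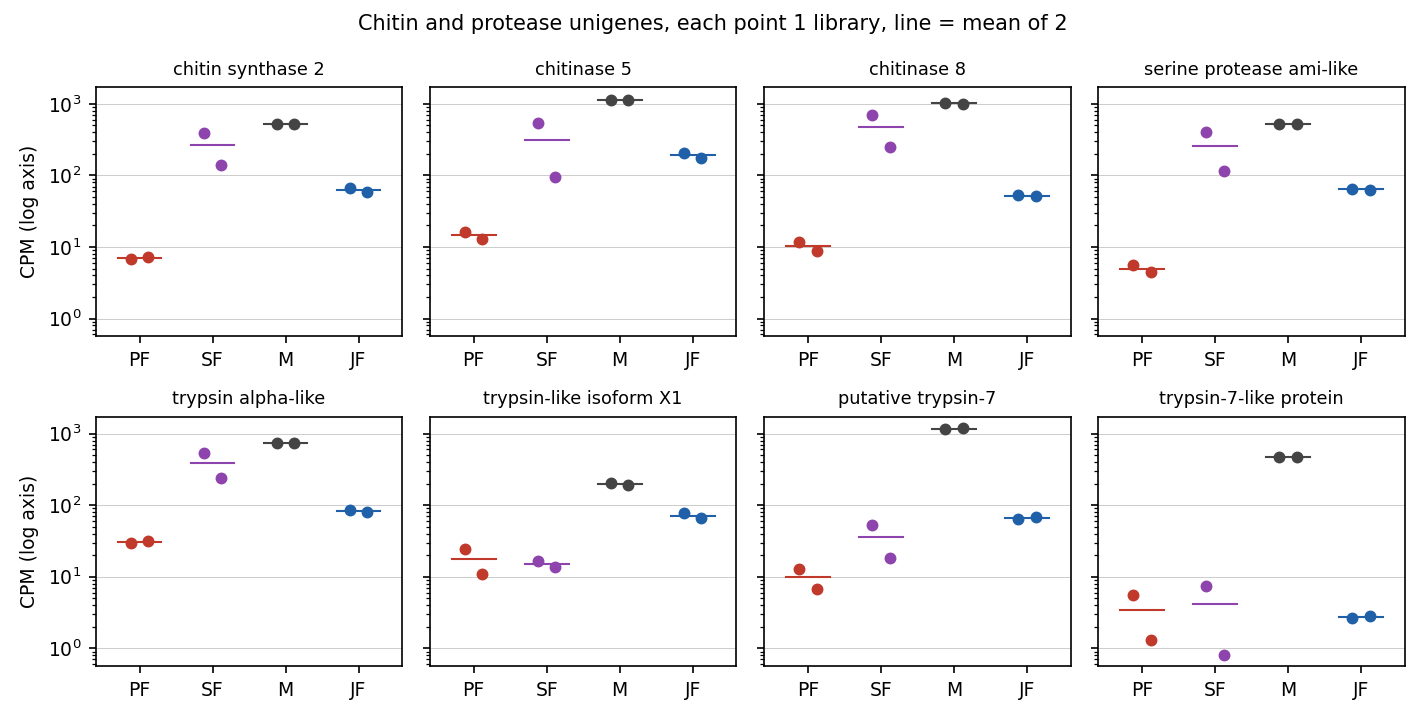
CPM (log axis) of 3 chitin genes and 5 protease genes in PF, SF, M and JF, each point 1 library and each line the mean of 2. Both PF points lie below all other points in every panel except trypsin-like isoform X1 and trypsin-7-like protein, where they overlap with SF; for chitin synthase 2 they are at 6.79 and 7.3 CPM and all others at 58.4 CPM or more.

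*Laminin gamma-3* (Cluster-5789.8159), named after a protein of the basement membrane, had 127 and 132 CPM in PF, 86.3 and 75.8 CPM in SF, 743 and 745 CPM in M, and 273 and 266 CPM in JF. The adult females were thus both below JF, with -1.06 on the log2 scale in PF vs JF (edgeR adjusted p = 0.000325, standard error 0.11) and -1.73 in SF vs JF (edgeR adjusted p = 0.000143). The change in PF vs JF was at the fold change threshold, and it was -0.99 without PF replicate 1, SF replicate 1 or SF replicate 2, and -0.95 in edgeR on the 4 libraries of PF and JF, which ended the call, as did the threshold inside edgeR's test (adjusted p = 0.344). *Doublesex2* was not called in PF vs JF, with -0.06 on the log2 scale (edgeR adjusted p = 0.869, standard error 0.27) and libraries that overlapped.

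Of the 17 uncharacterized genes, 4 were up-regulated (23.5%, beside 17.2% of all tested unigenes) and 5 down-regulated in PF vs JF (29.4%, beside 21.6%), and 8 were not called. Cluster-5789.11865 had the smallest standard error of the 4 rises, with 29.2 and 24.8 CPM in PF, 18.6 and 26.1 CPM in SF, 213 and 222 CPM in M, and 4.55 and 3.39 CPM in JF (log2 fold change 2.77 in PF vs JF, standard error 0.22, edgeR adjusted p = 0.000139). Cluster-5789.1251 had 139 and 239 CPM in PF, 631 and 317 CPM in SF, 711 and 718 CPM in M, and 41 and 40.4 CPM in JF, so all adults were above JF (log2 fold change 2.21 in PF vs JF, edgeR adjusted p = 0.00326). The other 2 rises depended on single libraries. Cluster-5789.11844 had 27.2 and 182 CPM in PF, 1832 and 3506 CPM in SF, 32 and 31.4 CPM in M, and 8.11 and 12.1 CPM in JF. It was highest in SF and not called in M vs JF (edgeR adjusted p = 0.164). The study lists it as male-biased on the basis of qPCR, which these counts do not include. Its log2 fold change in PF vs JF was 3.36 (edgeR adjusted p = 0.0218), 1.42 without PF replicate 2 and 4.21 without PF replicate 1, and the call was lost without JF replicate 1 (3.10) or JF replicate 2 (3.68) and in edgeR on the 4 libraries (3.46, adjusted p = 0.0777) or with the threshold inside the test (adjusted p = 0.0653). Cluster-5789.11669 had 78.2 and 46.5 CPM in PF and 26.5 and 32.5 CPM in JF (log2 fold change 1.08, edgeR adjusted p = 0.0251), and its call was lost without JF replicate 1 (0.94), JF replicate 2 (1.23) or PF replicate 1 (0.70) and with the threshold inside edgeR's test (adjusted p = 0.486).

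The 5 down-regulated uncharacterized genes followed 2 patterns. Cluster-5789.6490 and Cluster-5789.1931 were lowest in PF and higher in SF and M than in JF, as the chitin synthase gene was. Cluster-5789.6490 had 46.9 and 41.6 CPM in PF, 1712 and 551 CPM in SF, 1639 and 1655 CPM in M, and 363 and 320 CPM in JF (log2 fold change -2.95 in PF vs JF, edgeR adjusted p = 0.00359). Cluster-5789.1931 had 7.52 and 15.4 CPM in PF, 864 and 462 CPM in SF, 914 and 913 CPM in M, and 63.2 and 66.4 CPM in JF (log2 fold change -2.50 in PF vs JF, edgeR adjusted p = 0.00293). For Cluster-5789.1931 it was -3.11 without PF replicate 2 and -2.03 without PF replicate 1.

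The other 3 were low in both adult female stages. Cluster-5789.6049, Cluster-5789.9163 and Cluster-5789.9162 had log2 fold changes of -1.94, -1.92 and -1.41 in PF vs JF (edgeR adjusted p = 0.00122, 0.00371 and 0.000842) and of -2.08, -3.29 and -3.76 in SF vs JF. Cluster-5789.9162 had 3.29 and 2.98 CPM in PF, 0.649 and 0.572 CPM in SF, 97.3 and 100.3 CPM in M, and 9.73 and 7 CPM in JF, so the stages did not overlap. Cluster-5789.9163, whose ID is the next number, had the same order of stages, with 11.3 and 7.14 CPM in PF, 2.64 and 4.48 CPM in SF, 449 and 452 CPM in M, and 42.5 and 27.3 CPM in JF. PF was above SF in both (log2 fold changes 2.35 and 1.37 in PF vs SF, edgeR adjusted p = 0.00133 and 0.0347).

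The 8 uncharacterized genes without a call had log2 fold changes between -0.42 and 1.08 in PF vs JF. Cluster-5789.2177 had the lowest adjusted p of these, with 20.9 and 29.7 CPM in PF and 12.9 and 16.2 CPM in JF (log2 fold change 0.80, edgeR adjusted p = 0.0113, under the fold change threshold), and it was called without PF replicate 1 (1.07). In 5 of the 8, SF was called higher than JF while PF was not. An example is Cluster-5789.11774, with 4.76 and 3.46 CPM in PF, 198 and 92.5 CPM in SF, 358 and 346 CPM in M, and 3.45 and 4.21 CPM in JF. Its log2 fold change was 0.10 in PF vs JF (edgeR adjusted p = 0.832) and -5.13 in PF vs SF (edgeR adjusted p = 0.00121).

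Over all 28 unigenes of the table, 13 (46.4%) were down-regulated and 4 (14.3%) up-regulated in PF vs JF, beside 21.6% and 17.2% of all tested unigenes. Their median log2 fold change was -0.31, beside -0.08 over all tested unigenes. In SF vs JF 5 (17.9%) were down-regulated and 15 (53.6%) up-regulated, beside 18.6% and 19.0% of all tested unigenes, with a median of 1.88, beside 0.08. Since the table was chosen from these libraries, these counts are no independent evidence.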

How the data were processed

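Poly-A RNA was sequenced as paired reads (Illumina HiSeq) and assembled without a genome with Trinity after quality filtering. The authors deposited estimated counts per unigene for each library, without scaling. For aligner and counting tool, nothing is given in the sources used here. No value was 0, and 56.8% to 63.8% of a library's values were whole numbers (within 1e-06).

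Counts were rounded and scaled by TMM. The quasi-likelihood test of edgeR 4.0.16 (limma 3.58.1, R 4.3.3, robust estimation) was run in 1 fit of the 8 libraries, with a term for stage and 4 residual degrees of freedom. The low-count filter removed 292 unigenes and kept 10822. p-values were adjusted by Benjamini and Hochberg within each of 5 comparisons (PF vs JF, SF vs JF, M vs JF, PF vs SF and PF vs M), with thresholds of 0.05 for the adjusted p and 1 for the absolute log2 fold change. CPM are on the TMM scale. The standard error is the absolute log2 fold change over the square root of F. Nothing says whether both samples of a stage came from separate cultures, so p-values measure the spread between these pools.

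Named unigenes were those of the study's table of 36 that are listed in the files (28, with 8 not analysed here) and 4 others. The 4 were taken among unigenes with a mean over 20 CPM in PF or JF and no overlap between both stages. The largest rise and fall in PF vs JF were taken first. Then came the rise and fall called in PF vs JF, PF vs SF and PF vs M with the largest minimum change over them. Unigenes already named were passed over, so Cluster-5789.7782 was the next in rank after Cluster-5789.6401. Members, lists and tests were chosen with earlier results of these data known. Alternatives were other scaling, other filters and thresholds, DESeq2 1.42.0, edgeR on the 4 libraries of a comparison, a replicate block, the main assembly cluster alone, and each library left out.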

Additional observations from a re-analysis of the deposited data

Results flagged for a closer look

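Some unigenes changed in opposite directions in PF and in another adult stage, each against JF, and the difference between the 2 effects is the test of PF against that stage. In numbers, 117 unigenes were down-regulated in PF vs JF and up-regulated in SF vs JF, 9 were up-regulated in PF and down-regulated in SF, 203 were down-regulated in PF and up-regulated in M, and 125 were up-regulated in PF and down-regulated in M. PF and the other stage were called different from each other in every one of the unigenes with opposite calls. Opposite calls already place the 2 stages on either side of JF, so this follows largely from the selection. The comparisons share the JF libraries.

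Among the named unigenes, opposite calls in PF vs JF and SF vs JF were found for *chitinase 8* (Cluster-5789.7417, log2 fold change -5.55 in PF vs SF), *chitin synthase 2* (Cluster-5789.11830, -5.23), *serine protease ami-like* (Cluster-5789.2039, -5.70), *trypsin alpha-like* (Cluster-5789.11655, -3.67), Cluster-5789.6490 (-4.68), Cluster-5789.1931 (-5.86) and Cluster-5789.7782 (-7.03). In all 7, SF-1 was higher than SF-2 and both were above both PF libraries.

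The same 7 unigenes had opposite calls in PF vs JF and M vs JF, with log2 fold changes in PF vs M of -6.63 (Cluster-5789.7417), -6.21 (Cluster-5789.11830), -6.70 (Cluster-5789.2039), -4.61 (Cluster-5789.11655), -5.22 (Cluster-5789.6490), -6.32 (Cluster-5789.1931) and -7.38 (Cluster-5789.7782). Opposite calls in M alone were found for *laminin gamma-3* (Cluster-5789.8159, -2.52 in PF vs M), *chitinase 5* (Cluster-5789.5191, -6.30), *putative trypsin-7* (Cluster-5789.3677, -6.88), *trypsin-like isoform X1* (Cluster-5789.7668, -3.49), Cluster-5789.6049 (-4.32), Cluster-5789.9163 (-5.61) and Cluster-5789.9162 (-4.97). All but Cluster-5789.7782 come from a table that the study chose for high values in M, with PF among the stages compared.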

How the results depend on the processing

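Up- and down-regulated unigenes in PF vs JF numbered between 1686 and 2078 and between 2102 and 2310 with any 1 library left out. Other scaling, filters, DESeq2, the main assembly cluster alone and edgeR on 4 libraries also left these counts within 1.5 times. Up-regulated unigenes were 44.3% of the DEGs and 50.3% with edgeR on 4 libraries, so the larger direction changed with the fit. Over all tested unigenes, the median log2 fold change was -0.08 in the fit of 8 libraries and 0.02 in that of 4. Of the 4205 DEGs, 4115 were called in the same direction by DESeq2, 3844 by edgeR on 4 libraries and 3592 without JF replicate 2, the lowest number with a library left out. With the fold change threshold inside the test, 1129 unigenes were up-regulated and 1434 down-regulated, 186 and 315 were shared with SF and M, 18 and 198 set PF apart from JF, SF and M, and 35 fell in PF and rose in SF and M. With the adjusted p alone, 3108 unigenes rose in PF vs JF, 1125 rising and 1707 falling unigenes were shared with SF and M, 630 and 795 set PF apart, and 162 fell in PF and rose in SF and M. With edgeR on 4 libraries, 57 and 261 set PF apart. With a library left out, the share without a call in the same direction in SF or M was 23.6% to 29.5% of the up-regulated and 30.7% to 40.1% of the down-regulated unigenes. It was 35.2% and 44.5% with the threshold inside the test, and 17.6% and 22.4% with the adjusted p alone.

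Replicate numbers are shared by the stages, but the deviations of same-numbered PF and JF libraries were not correlated (-0.04 across unigenes), so the numbers do not pair them. With the replicate number as a block, 1843 unigenes were up-regulated and 2318 down-regulated.

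Directions that turned belonged to unigenes without a call. *Doublesex2* had a log2 fold change of 0.0496 with edgeR on 4 libraries. With a library left out, it was between -0.48 and 0.33 for *Doublesex2* (Cluster-5789.12340), between -1.02 and 1.00 for Cluster-5789.9553, -0.38 and 0.53 for Cluster-5789.9554, -0.51 and 1.92 for Cluster-5789.11654, -0.0552 and 0.61 for Cluster-5789.11701, -0.42 and 0.23 for Cluster-5789.11046, -0.11 and 0.31 for Cluster-5789.11774, -0.43 and 0.0356 for Cluster-5789.2216 and -0.00062 and 0.47 for Cluster-5789.1615. Depth limited unigenes under 1 CPM most.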

Other observations

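Other unigenes were called in both other adults but not in PF vs JF. In SF vs JF and in M vs JF alike, 383 unigenes were up-regulated that were not called in PF vs JF, and in 287 of them PF was called lower than SF and M directly. In the other direction 218 unigenes were down-regulated in SF and M and not called in PF, and 74 of them were called higher in PF than in both.

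Few of the listed unigenes came close to an on or off pattern. Unigenes with a count of 0 in any library are not listed, so the number of genes switched on or off cannot be told from this. A mean under 1 CPM in JF and over 10 CPM in PF was found for 8 unigenes, 7 of them called, and 5 of the 8 were over 10 CPM in M but only 1 in SF. A mean under 1 CPM in PF and over 10 CPM in JF was found for 10 unigenes, all called, and 5 of them were over 10 CPM in both SF and M.

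Unigenes outside the main assembly cluster had few reads and more falls. Of 624 such unigenes tested, 97 (15.5%) were up-regulated and 173 (27.7%) down-regulated in PF vs JF, beside 17.3% and 21.3% in the main cluster, and their median level was 3.91 CPM, beside 29.7 CPM. All 653 listed ones held 0.407% and 0.461% of the counts in PF, against 0.467% and 0.455% in JF.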
